A study of Mus musculus with 4 samples.

Results

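The report concerns 10 genes of the bone morphogenetic protein (BMP) pathway, out of 26286 genes counted in LSK cells, and asks whether the Id response genes move with the ligand gene Bmp4. The 10 genes are Bmp4, its receptor genes Bmpr1a, Bmpr2 and Acvr1, the signal transducers Smad1, Smad4 and Smad5, and the response genes Id1, Id2 and Id3. They were listed by pathway role and matched by gene symbol, after the higher level of Bmp4 in this same comparison was known. Their differences between groups are therefore given as values with no p-value. All 10 passed the filter on low counts, each with a mean above 1 CPM (read count scaled to library size).

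LSK cells are the lineage-negative marrow cells carrying Sca-1 and Kit, and hold the blood's stem cells along with its multipotent progenitors. RNA sequencing libraries were made from sorted LSK cells of C57BL/6 mouse bone marrow. There were 2 libraries from Hhex-deleted cells and 2 from wild-type cells, and the labels do not say whether these came from separate mice. Sex-linked transcripts differed within the Hhex-deleted pair, so those libraries did not come from the same single mouse. For the wild-type pair this is not known, so its spread may be technical, and p-values reflect just the spread within these pairs of libraries. The labels give the genotype of the first group as Hhex deletion and of the second as wild-type. The labels name no allele, Cre driver, treatment or age.

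BMPs are secreted ligands of the TGF-beta family. They bind a complex of type I receptors, such as those encoded by Bmpr1a and Acvr1, and type II receptors, such as that of Bmpr2. The active type I receptor phosphorylates Smad1 and Smad5, which enter the nucleus with their shared partner Smad4 and switch on target genes, of which the Id genes are the best known. Id proteins are helix-loop-helix proteins without a DNA-binding region, and they sequester E proteins, the transcription factors on which lymphoid development depends. In marrow, BMP4 is best known as a product of the niche cells around stem cells.

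Total counts lay between 27871827 and 29501591 per library, so that 3 counts, taken as the floor, were worth 0.0995 to 0.109 CPM. Hhex itself had 179 and 188 CPM in the libraries labelled Hhex-deleted, against 127 and 115 CPM in wild-type. These groups did not overlap, and Hhex was called higher in the libraries labelled Hhex-deleted (log2 fold change 0.60 ± 0.09 SE, edgeR adjusted p = 0.0271). A count over the whole gene can include reads from exons that were not deleted, and the labels name no allele. Which exons the reads came from was not tested, so the count cannot check the deletion, and the groups are named here as labelled. Labelled Hhex-deleted replicate 1 stood apart in sex-linked transcripts, with 2662 CPM of Xist against 1.89 to 2.66 CPM in the other 3 libraries and 0.343 CPM of the Y-linked Ddx3y against 124 to 138 CPM. Kit (566 to 698 CPM), Cd34 (782 to 856 CPM) and Ly6a, the Sca-1 gene (20.7 to 42.5 CPM), were detected in every library. Of 12 LSK markers tested, 10 had log2 fold changes above 0 and 2 below. By edgeR 1 of them was called higher, Cd48 (0.63 ± 0.09 SE, adjusted p = 0.0239), and 0 lower. In edgeR's quasi-likelihood test over 14912 genes, 2.60% were called at a Benjamini-Hochberg adjusted p under 0.05, 1.48% of all as higher and 1.12% as lower in the libraries labelled Hhex-deleted.

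The bases directly upstream of the start site are shown for both pathway genes whose mean differed most between groups, Bmp4 and Bmpr1a, and for the response genes Id2 and Id3. Sequences come from the RefSeq promoter table of build GRCm38.p6, in which 8 of the 10 genes matched; Smad4 and Id1 had no entry. Each run holds the 250 bases before the most upstream start, 5′ to 3′ on the gene's strand. Bmp4 lies at chr14:46390670-46390919 (minus strand), Bmpr1a at chr14:34502547-34502796 (minus), Id2 at chr12:25096093-25096342 (minus) and Id3 at chr4:136143572-136143821 (plus). Capitals mark GGCGCC, a GC-rich palindrome that BMP-activated Smads can bind, CAGAC (or GTCTG), the Smad box, and TAAT (or ATTA), the core of homeodomain sites. Both strands were searched, and no 2 marked matches overlap.
Bmp4: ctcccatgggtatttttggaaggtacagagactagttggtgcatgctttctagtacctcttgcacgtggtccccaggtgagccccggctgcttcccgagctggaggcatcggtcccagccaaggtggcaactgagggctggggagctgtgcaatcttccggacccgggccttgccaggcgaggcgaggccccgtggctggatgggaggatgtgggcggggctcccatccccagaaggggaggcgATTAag
Bmpr1a: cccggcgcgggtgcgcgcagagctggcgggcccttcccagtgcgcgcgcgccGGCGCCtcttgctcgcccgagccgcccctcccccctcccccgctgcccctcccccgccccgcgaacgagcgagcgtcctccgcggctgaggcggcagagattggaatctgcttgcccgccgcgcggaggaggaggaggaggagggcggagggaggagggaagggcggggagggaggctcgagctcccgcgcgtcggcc
Id2: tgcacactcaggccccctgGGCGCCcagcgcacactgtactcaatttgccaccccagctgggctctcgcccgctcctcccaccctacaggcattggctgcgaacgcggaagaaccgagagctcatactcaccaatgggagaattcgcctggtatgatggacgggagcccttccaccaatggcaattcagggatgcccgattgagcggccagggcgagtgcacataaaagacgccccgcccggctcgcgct
Id3: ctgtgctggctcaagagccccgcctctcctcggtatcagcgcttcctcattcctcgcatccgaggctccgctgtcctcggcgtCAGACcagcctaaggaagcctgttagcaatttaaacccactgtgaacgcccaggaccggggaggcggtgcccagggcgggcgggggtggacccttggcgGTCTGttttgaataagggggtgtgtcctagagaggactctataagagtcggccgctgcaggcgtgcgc

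GGCGCC occurred 1 time each in Bmpr1a and Id2, and also 1 time in Bmpr2, against 9.57% of 27025 upstream regions of the same length. The Smad box occurred 2 times in Id3, with a match in 42.2% of all regions. The homeodomain core occurred 1 time in Bmp4, and also 1 time each in Smad1 and Smad5, with a match in 55.4% of all regions. Bmpr1a had the most GC-rich window of the 4 shown (78.8% G or C, with 36 CpG pairs), and Bmp4 had 63.2% and 11 CpG pairs. A match describes the letters and is not a measured binding site.

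The ligand gene Bmp4 was close to undetected in wild-type cells and low but clearly counted in the libraries labelled Hhex-deleted. It had 5 and 3 reads in wild-type replicates 1 and 2 (0.182 and 0.105 CPM) against 114 and 53 reads in labelled Hhex-deleted replicates 1 and 2 (3.91 and 1.76 CPM). The groups did not overlap, and the 3 reads of wild-type replicate 2 lie at the counting floor. Means were 2.83 ± 1.52 and 0.144 ± 0.0547 CPM (SD, n = 2 each), a 19.7-fold difference, and the fitted log2 fold change was 4.26 ± 0.59 (SE).

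The libraries labelled Hhex-deleted differed between themselves as well, with 2.22 times as much Bmp4 in replicate 1 as in replicate 2 (95% exact conditional binomial interval 1.59 to 3.14, counting error only). Without replicate 1, the library with female markers, the log2 fold change was 3.58. It was 4.70 when wild-type replicate 1 was left out and 3.93 when wild-type replicate 2 was left out. Across all tested genes, the profiles over the 4 libraries closest to that of Bmp4 were those of Gbp6, Gbp10, Zcchc14, Tulp3 and Gbp9. Likeness was the Euclidean distance between mean-centred log2 CPM, with distances of 0.42, 0.51, 0.53, 0.68 and 0.70 among 13434 genes with a mean of at least 1 CPM. Gbp6, Gbp9 and Gbp10 are guanylate-binding protein genes of the interferon response, and as close paralogs they can share reads.

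**Figure D1:**
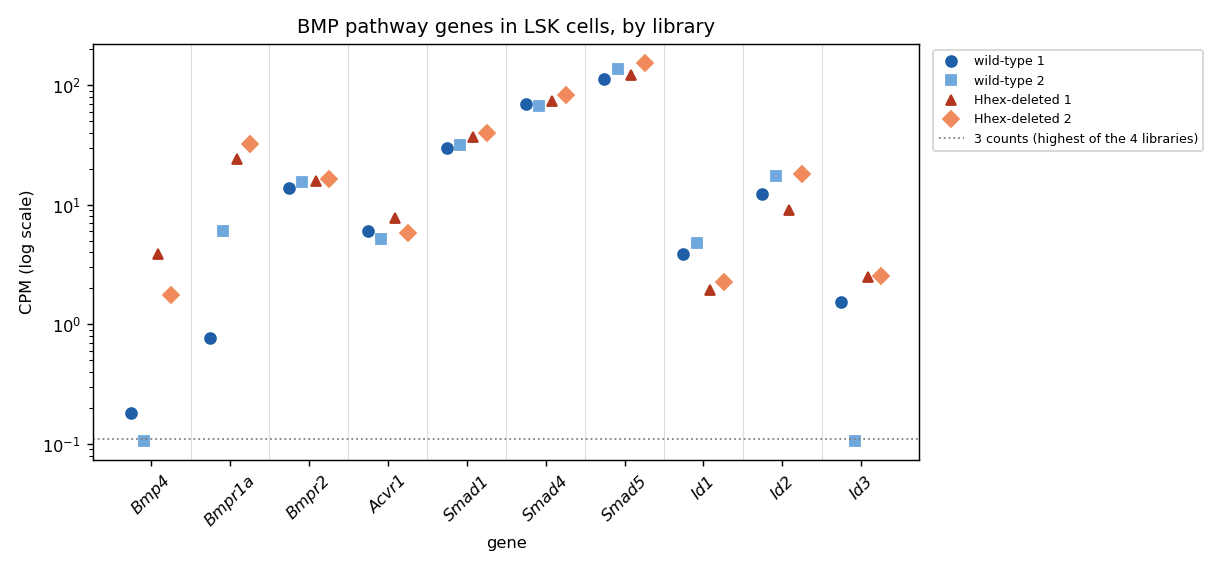
CPM (log scale) of the 10 BMP pathway genes, with 1 point per library and the dotted line at 3 counts. Bmp4 and Bmpr1a are the genes with the widest gap between groups, and wild-type replicate 2 holds the lowest Id3 value, at 0.105 CPM.

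Among the receptor genes, Bmpr1a, which encodes the type I receptor also called ALK3, differed most between groups, and its wild-type libraries disagreed. Reads numbered 700 and 966 in labelled Hhex-deleted replicates 1 and 2 (24.0 and 32.0 CPM) and 21 and 174 in wild-type replicates 1 and 2 (0.766 and 6.09 CPM). The groups did not overlap, yet wild-type replicate 2 had 7.95 times the level of wild-type replicate 1 (95% interval 5.04 to 13.2, counting error only). To compare this with other genes, a small constant was added to each CPM, which gave Bmpr1a an absolute log2 ratio of 2.91. Of 3470 tested genes within 2-fold of the mean CPM of Bmpr1a over all 4 libraries, 0.375% had a larger one in either direction. That mean lies above both wild-type values of Bmpr1a, so these genes are not matched to its wild-type level. The share may therefore understate how common such ratios are at that level. The log2 fold change was 3.02 ± 1.11 (SE), from means of 28.0 ± 5.70 and 3.43 ± 3.77 CPM (SD, n = 2 each). Leaving out wild-type replicate 1 gave 2.20 and leaving out wild-type replicate 2 gave 5.19.

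The other receptor genes lay close together in all libraries. Bmpr2, the type II receptor, had 15.8 and 16.4 CPM in labelled Hhex-deleted replicates 1 and 2 against 13.7 and 15.4 CPM in wild-type, a log2 fold change of 0.15 ± 0.13 (SE). These groups did not overlap, but the gap between 15.8 and 15.4 CPM was smaller than the gap between the wild-type libraries. Acvr1, the type I receptor ALK2, had 7.71 and 5.87 CPM against 6.09 and 5.22 CPM, and the groups overlapped (0.26 ± 0.22).

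The genes beside Bmp4, Bmpr1a, Id1 and Id3 on the chromosome were also examined, a choice made after the values were seen. Of the 16 nearest tested genes, 2 on each side of each gene in RefSeq order, 0 were called by edgeR, DESeq2 or limma-voom, and 1 had an unadjusted p under 0.05, beside 15.8% of all tested genes. That gene was Cox4i2, a cytochrome c oxidase subunit gene next to Id1, with 0.343 and 0.332 CPM in labelled Hhex-deleted replicates 1 and 2 against 1.46 and 1.23 CPM in wild-type. Its groups did not overlap, and it stood at -1.98 ± 0.37 on the log2 scale (SE, edgeR adjusted p = 0.0554). The 8 genes beside Bmp4 and Bmpr1a ran from -0.10 for Cdkn3 to 0.17 for Wapal on the log2 scale.

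The Smad genes were well expressed in every library and differed little between groups. Smad1, which carries the BMP signal, had 37.2 and 40.1 CPM in labelled Hhex-deleted replicates 1 and 2 against 30.0 and 31.6 CPM in wild-type replicates 1 and 2. The groups did not overlap, and the log2 fold change was 0.33 ± 0.09 (SE). Smad4, the partner shared with the TGF-beta arm, had 73.4 and 82.4 CPM against 69.2 and 67.6 CPM, also without overlap (0.19 ± 0.09). Smad5, which acts in parallel with Smad1, had 122 and 154 CPM against 113 and 137 CPM. For Smad5 the groups overlapped, and its log2 fold change of 0.14 ± 0.15 became -0.03 without labelled Hhex-deleted replicate 2.

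The 3 Id genes did not share a direction: Id1 stood below wild-type, Id2 overlapped with it, and Id3 stood above wild-type libraries that disagreed. Id1 had 1.95 and 2.26 CPM in labelled Hhex-deleted replicates 1 and 2 (57 and 68 reads) and 3.90 and 4.83 CPM in wild-type replicates 1 and 2 (107 and 138 reads). Both libraries labelled Hhex-deleted were below both wild-type libraries. The wild-type mean was 2.08 times that of the libraries labelled Hhex-deleted, with means of 4.37 ± 0.656 and 2.10 ± 0.214 CPM (SD, n = 2 each) and a log2 fold change of -1.05 ± 0.25 (SE). This value stayed negative whichever library was left out, with -1.20 when wild-type replicate 1 was omitted and -0.88 when wild-type replicate 2 was omitted.

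Id2 had 9.04 and 18.0 CPM in labelled Hhex-deleted replicates 1 and 2 against 12.2 and 17.6 CPM in wild-type replicates 1 and 2. The groups overlapped fully, with the highest and the lowest value both among the libraries labelled Hhex-deleted. The log2 fold change was -0.14 ± 0.38 (SE), and it changed sign to 0.27 without labelled Hhex-deleted replicate 1.

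Id3 had 2.50 and 2.55 CPM in labelled Hhex-deleted replicates 1 and 2 (73 and 77 reads) against 1.53 and 0.105 CPM in wild-type replicates 1 and 2 (42 and 3 reads). Both libraries labelled Hhex-deleted were above both wild-type libraries, but the wild-type libraries lay far apart. Wild-type replicate 1 had 14.6 times the level of wild-type replicate 2 (95% interval 4.66 to 73.6, counting error only). To compare it with other genes, a small constant was added to each CPM, which gave Id3 an absolute log2 ratio of 3.35. Of 1825 tested genes within 2-fold of the mean CPM of Id3 over all 4 libraries, 0.767% had a larger one in either direction. That mean also lies above both wild-type values of Id3, so these genes are not matched to its wild-type level. The log2 fold change of 1.63 ± 1.00 (SE) became 0.73 when wild-type replicate 2 was left out, and 4.53 when wild-type replicate 1, the one with more Id3, was left out.

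**Figure D2:**
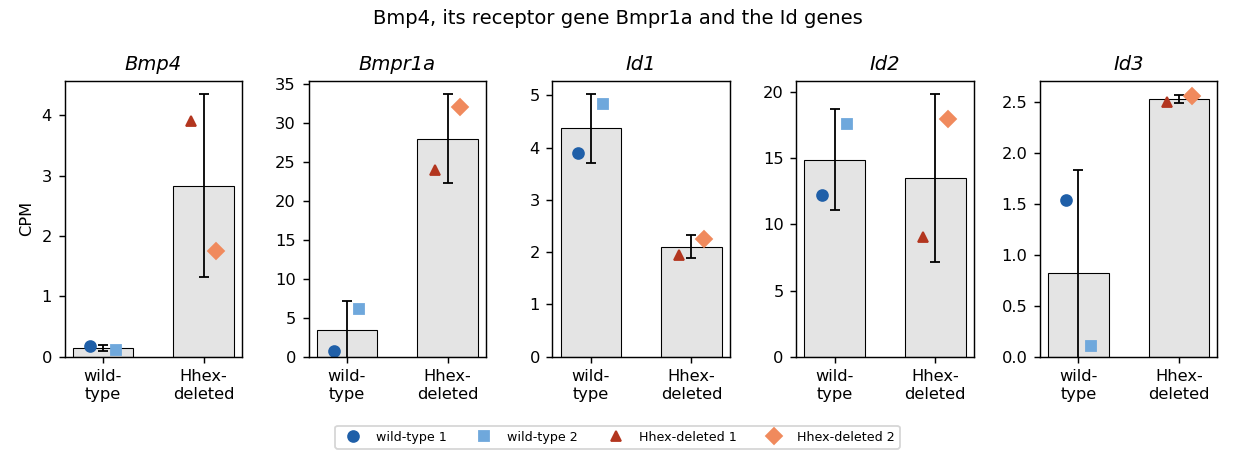
CPM of Bmp4, Bmpr1a, Id1, Id2 and Id3, with bars for group means, error bars for the SD (n = 2, running below 0 and ending at the axis where the SD exceeds the mean) and 1 point per library. Bmp4 and Bmpr1a stand higher in the libraries labelled Hhex-deleted, Id1 stands lower, Id2 overlaps and Id3 has wild-type points far apart.

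Within the group labelled Hhex-deleted, replicate 1 had 2.22 times the Bmp4 of replicate 2 and less Id2, at a ratio of 0.502 (95% interval 0.432 to 0.583, counting error only). For Id1 and Id3 the same pair could not be told apart at this depth, with ratios of 0.866 (0.598 to 1.25) and 0.979 (0.701 to 1.37). The ratio was 0.748 for Bmpr1a (0.678 to 0.826), and this pair also differs in sex-linked transcripts and in LSK markers. Replicates 1 and 2 had 20.7 and 42.5 CPM of Ly6a, 12.7 and 35.8 of Procr, 282 and 506 of Flt3 and 139 and 249 of Hlf. Slamf1 went the other way, with 9.83 and 8.56 CPM. In wild-type, replicate 1 had 1.74 times the Bmp4 of replicate 2, within counting error at 5 and 3 reads (0.338 to 11.2). It had 14.6 times the Id3 of wild-type replicate 2. Id2 was lower there, with 1.44 times as much in wild-type replicate 2 (1.25 to 1.66). Id1 had 107 and 138 reads in wild-type replicates 1 and 2, and no interval was computed for that pair. The median log2 fold change of the Id genes is that of Id2, -0.14, beside -0.0055 for all tested genes. It turned to 0.27 without labelled Hhex-deleted replicate 1 and moved to -0.71 without replicate 2. With 2 libraries in a group, no correlation across libraries was computed.

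Of the 10 genes, 1 was called, Bmp4, against 2.60% of all tested genes; nothing is read from this count, since Bmp4 was chosen on this comparison. DESeq2 also called 1 of the 10, against 6.63% of all tested genes, and limma-voom 0, against 1.35%. With edgeR the count was 2 when wild-type replicate 1 was left out and 1 when wild-type replicate 2 was left out, neither including Bmp4. By groups that did not overlap, 6 of 10 were higher and 1 lower, beside 21.9% and 23.7% of all tested genes (45.5% in either direction). The median log2 fold change of the 10 was 0.23.

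**Figure D3:**
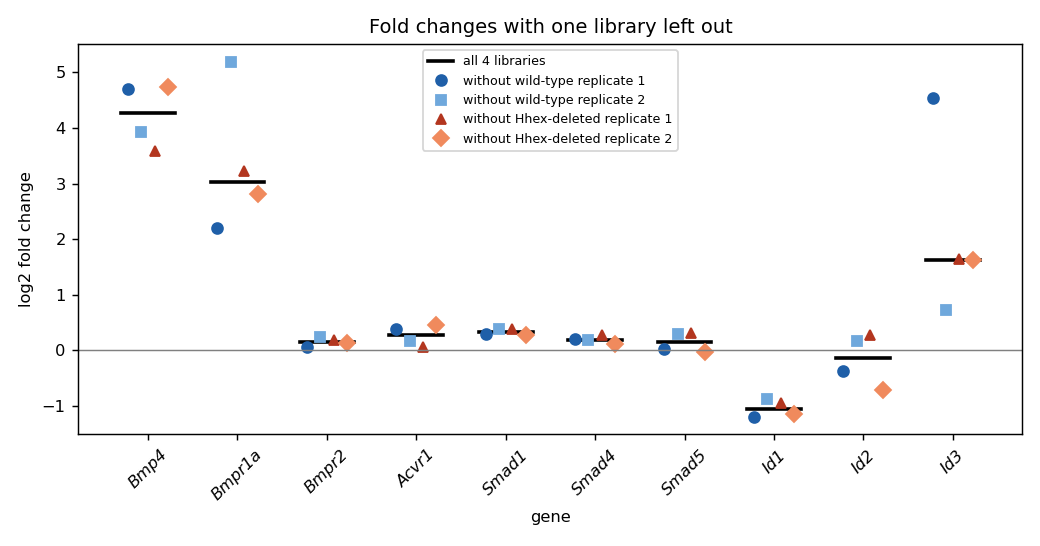
Log2 fold change (labelled Hhex-deleted over wild-type) of each of the 10 genes, with a bar for all 4 libraries and 1 point for each fit with a library left out. Bmpr1a and Id3 move with the wild-type library that is left out, from 2.20 to 5.19 and from 0.73 to 4.53, and Id1 stays below 0.

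Levels per kilobase (CPM divided by gene length in kilobases) allow the genes to be ordered. In wild-type the order was Smad4 (20.5 ± 0.348), Smad5 (17.4 ± 2.34), Id2 (11.7 ± 2.99), Smad1 (10.1 ± 0.384), Id1 (4.79 ± 0.720), Bmpr2 (4.15 ± 0.340), Acvr1 (1.71 ± 0.188), Id3 (0.859 ± 1.06), Bmpr1a (0.625 ± 0.687) and Bmp4 (0.0721 ± 0.0274), each a level per kilobase with SD and n = 2. Among neighbours in this order, Id2 and Smad1 overlapped, as did Id1 and Bmpr2, Acvr1 and Id3, and Id3 and Bmpr1a. In the libraries labelled Hhex-deleted, Bmpr1a stood in position 5 rather than 9, at 5.11 ± 1.04 per kilobase. There it overlapped with Bmpr2 at 4.59 ± 0.126 per kilobase, and Bmp4 was still the lowest of the 10 at 1.42 ± 0.762 per kilobase.

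Beyond these genes, 6 lists of related genes were followed: other ligands, other receptors, secreted antagonists, intracellular regulators, other response genes, and the TGF-beta and activin arm. They hold 86 genes; 44 were tested, and 18 were without a read in all 4 libraries. By edgeR 0 of the 44 were called in either direction, against 2.60% of all tested genes. Unadjusted p-values under 0.05 were found for 6 higher and 4 lower genes, beside 7.59% and 8.23% of all tested genes. DESeq2 called 3 higher (Gata2, Crim1 and Acvr1b) and 1 lower (Fkbp1a), beside 6.63% of all tested genes in either direction. With limma-voom 0 were called, beside 1.35%. Their median log2 fold change was 0.04.

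Other ligand genes were at or near background. Of 13 listed, Bmp7 alone was tested, with 11 to 20 reads per library and 0.49 ± 0.41 on the log2 scale (SE, edgeR adjusted p = 0.672). Bmp2, named because it shares receptors with Bmp4, was seen in labelled Hhex-deleted replicates 1 and 2 with 1 and 0 reads and in wild-type with 8 and 3 reads. Among 9 other receptors and co-receptors, Eng, the co-receptor endoglin, had the highest CPM, with 166 and 141 CPM against 128 and 124 CPM (0.28 ± 0.10, edgeR adjusted p = 0.241). Tgfbr3, the co-receptor betaglycan, had 18.6 and 23.2 CPM against 28.8 and 19.9 CPM (-0.22 ± 0.21, edgeR adjusted p = 0.732), and the sign turned to 0.07 without wild-type replicate 1. Bmpr1b, the other BMP type I receptor gene, had no read in any library.

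Among 20 secreted antagonists and modulators, 6 were tested and 6 had no read at all, among them Grem1 and Sost. Twsg1, which encodes a BMP-binding protein, had 60.9 and 72.6 CPM against 65.6 and 63.8 CPM (log2 fold change 0.05 ± 0.10 SE, edgeR adjusted p = 0.903). Crim1, a membrane protein that binds BMPs, had 27.3 and 29.6 CPM against 19.8 and 17.1 CPM, without overlap (0.63 ± 0.12, edgeR adjusted p = 0.0611). Of 18 intracellular regulators 16 were tested, with 8 values above and 8 below 0 and a range from -0.59 to 0.27. The Smad phosphatase genes Ctdsp2 and Ctdsp1 had the highest mean CPM among these regulators. Their log2 fold changes were 0.19 ± 0.08 and -0.12 ± 0.07 (SE, edgeR adjusted p = 0.319 and 0.524).

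All 7 tested genes of the 14 further response genes can be given. Of the inhibitory Smad genes, which BMP signalling induces as feedback, Smad6 stood below wild-type and Smad7 overlapped with it. Smad6 had 1.78 and 2.62 CPM in labelled Hhex-deleted replicates 1 and 2 against 3.79 and 3.92 CPM in wild-type, without overlap (log2 fold change -0.81 ± 0.28 SE, edgeR adjusted p = 0.225). Smad7 had 24.0 and 22.1 CPM against 37.7 and 13.1 CPM, both values within the wild-type range (-0.14 ± 0.60, edgeR adjusted p = 0.958).

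Bambi, a decoy receptor gene, had 12.4 and 8.06 CPM against 14.7 and 11.2 CPM (-0.33 ± 0.26, edgeR adjusted p = 0.646). Gata2, a stem and progenitor cell factor that is also active in mast cells, had 423 and 336 CPM against 247 and 200 CPM, without overlap (0.76 ± 0.15, edgeR adjusted p = 0.0727). The values for Runx2, Atoh8 and Hey1 were 0.02 ± 0.15, 0.73 ± 0.38 and -1.66 ± 2.39. Hey1, a Notch and BMP target, differed widely within both groups, with 30 and 1 reads in labelled Hhex-deleted replicates 1 and 2 and 92 and 0 reads in wild-type replicates 1 and 2.

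In the TGF-beta and activin arm 8 of 12 genes were tested, with log2 fold changes from -0.02 to 1.16. The highest was that of Inha, with 3.25 and 3.15 CPM in labelled Hhex-deleted replicates 1 and 2 against 1.61 and 1.26 CPM in wild-type. Its groups did not overlap (1.16 ± 0.27 SE, edgeR adjusted p = 0.0937). Tgfb1, the ligand with the highest CPM, had 330 and 289 CPM against 307 and 318 CPM (-0.01 ± 0.09 SE, edgeR adjusted p = 0.971). Smad3, which carries the TGF-beta signal, had a log2 fold change of 0.08 ± 0.08 (edgeR adjusted p = 0.714). The activin receptor gene Acvr1b had 89.3 and 106 CPM against 66.0 and 73.8 CPM, without overlap (0.49 ± 0.11, edgeR adjusted p = 0.0901), and was called without labelled Hhex-deleted replicate 1 (adjusted p = 0.0342).

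The E proteins and other bHLH partners form the set on which Id proteins act or with which E proteins pair. Of 5 tested genes, 1 was called higher and 0 lower by edgeR, beside 1.48% and 1.12% of all tested genes. By value, 4 stood above 0 and 1 below. Tal1, a bHLH factor of stem cells, had 218 and 233 CPM in the libraries labelled Hhex-deleted against 159 and 159 CPM in wild-type, or 0.50 ± 0.08 on the log2 scale (SE, edgeR adjusted p = 0.0339). Omitting labelled Hhex-deleted replicate 2, wild-type replicate 1 or wild-type replicate 2 ended that call (adjusted p = 0.0619, 0.135 and 0.184). The E protein genes Tcf3, Tcf4 and Tcf12 had values of 0.11 ± 0.09, 0.19 ± 0.09 and 0.22 ± 0.08 without passing the test (edgeR adjusted p = 0.642, 0.415 and 0.258), and Lyl1 stood at -0.00070 ± 0.13.

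**Figure D4:**
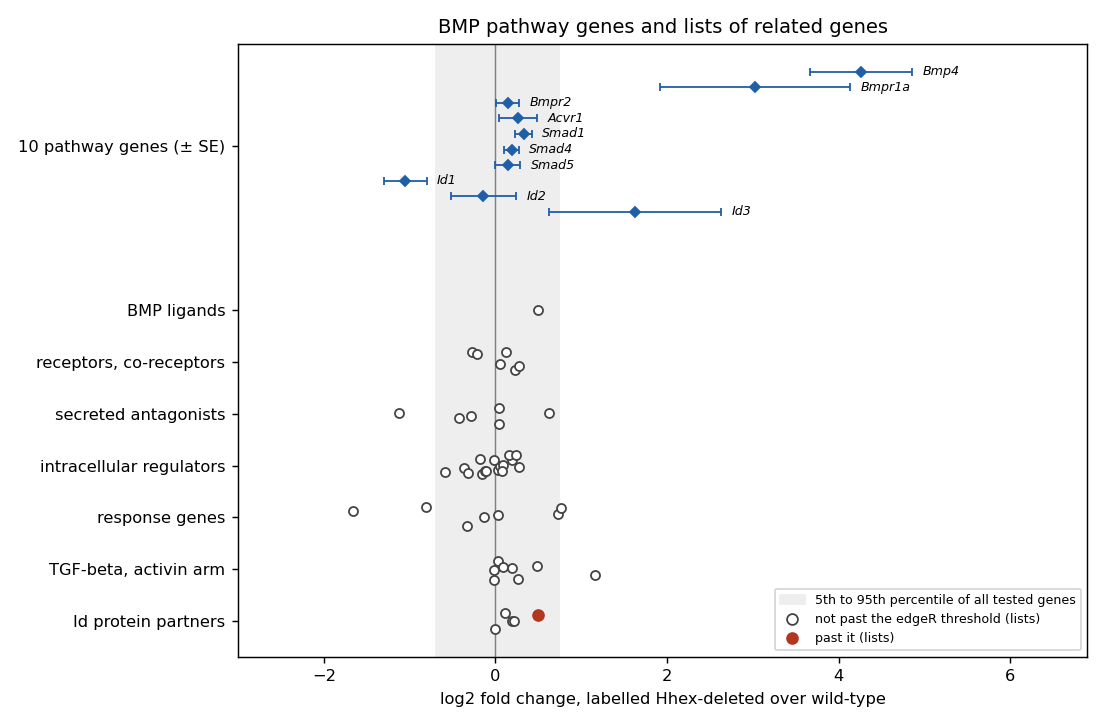
Log2 fold change (labelled Hhex-deleted over wild-type) of the 10 genes (diamonds, bars ± SE) and of tested genes on 7 related lists (circles, filled where past the edgeR threshold), with the shaded band from the 5th to the 95th percentile of all tested genes (-0.69 to 0.74). Tal1 is the single filled circle, and Bmp4, Bmpr1a and Id3 lie to the right of the band while Id1 lies to the left.

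Some transcripts of more differentiated cells differed between groups, while others overlapped. The part of such cells in the values of Bmp4, Bmpr1a and the Id genes was not tested. Fewer cells of a type and less RNA per cell cannot be told apart in bulk samples. Of 10 B cell precursor markers, 9 were called higher. The summed level of the 10 was 622 and 889 CPM in the libraries labelled Hhex-deleted against 177 and 200 CPM in wild-type. Dntt made up most of these sums, with 475 and 698 CPM against 135 and 153 CPM. Of 7 tested mast cell and basophil markers (8 listed), 5 were called higher, with sums of 939 and 874 CPM against 209 and 188 CPM. Of 12 mature myeloid markers, 3 were called higher and 0 lower by edgeR, while 8 had values below 0 and the median log2 fold change was -0.45. The 3 called were the complement genes C1qa, C1qb and C1qc, which together had 19.5 and 18.0 CPM in labelled Hhex-deleted replicates 1 and 2 against 4.67 and 3.54 CPM in wild-type. The other 9 markers together had 208 and 542 CPM against 655 and 1186 CPM. Among them Itgam, an integrin gene, had -0.67 ± 0.14 on the log2 scale without overlap (SE, edgeR adjusted p = 0.0768, DESeq2 adjusted p = 0.00109). S100a8 (-1.70 ± 0.89), Csf1r (-1.21 ± 0.48) and Cd68 (-0.45 ± 0.14) also stood below wild-type without overlap (edgeR adjusted p = 0.566, 0.419 and 0.178). For S100a9, Ltf, Camp, Ngp and Emr1 the groups overlapped, and Emr1 stood at 0.06 ± 0.19. Without wild-type replicate 2 the 3 C1q calls were lost, while 7 B cell precursor and 5 mast cell and basophil markers were called there. None of 8 erythroid markers was called by edgeR, with 0 at an unadjusted p under 0.05 and 0 called by DESeq2 or limma-voom, and their sums ran from 709 to 851 CPM against 632 to 642 CPM.

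Marrow stroma is a known source of Bmp4, and its part in the Bmp4 values was not tested. Of 12 stroma and bone markers 4 were tested, all 4 with values above 0 (median log2 fold change 0.89), and none was called by edgeR, with 0 at an unadjusted p under 0.05 and 0 called by DESeq2 or limma-voom. Their summed level was 75.3 and 98.1 CPM in the libraries labelled Hhex-deleted, against 82.4 and 79.0 CPM in wild-type, of which Pdgfrb made up 68.5 to 92.6 CPM. Col1a2, a collagen gene, had 147 reads in labelled Hhex-deleted replicate 1, the library with the most Bmp4, and 42 in each of the other 3 libraries. Cxcl12, a niche chemokine gene, had 28 and 88 reads in labelled Hhex-deleted replicates 1 and 2 against 31 and 26 in wild-type, so the library with more of it was not the one with more Col1a2. Kitl had 11 and 18 reads against 8 and 7, without overlap. Col1a1, Lepr and Pdgfra had 1 to 8 reads per library. Col3a1, Dcn, Lum and Bglap had 0 in both libraries labelled Hhex-deleted apart from 1 read of Col3a1. Lepr had 6 and 5 reads in labelled Hhex-deleted replicates 1 and 2 against 1 and 3 in wild-type, and Sp7 had 2 and 3 against 1 and 0. Dcn and Bglap went the other way, with 1 and 1 and with 3 and 2 reads in wild-type.

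Of 8 endothelial markers, 6 had values above 0, and 1 was called by edgeR, Tie1, which was lower. Cdh5, the VE-cadherin gene, had 18 and 24 reads in labelled Hhex-deleted replicates 1 and 2 against 3 and 3 reads in wild-type, at the counting floor, without overlap (log2 fold change 2.67 ± 0.51 SE, edgeR adjusted p = 0.0585). Tie1, an endothelial and stem cell receptor gene, stood at -0.68 ± 0.09 on the log2 scale (SE, edgeR adjusted p = 0.0227), a call that ended when wild-type replicate 1 (0.0884) or wild-type replicate 2 (0.0566) was omitted.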

How the data were processed

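Per the labels' protocols, sorted LSK cells gave RNA for Illumina TruSeq libraries. The authors deposited raw read counts per Entrez gene for 4 libraries, and log2 RPKM values (reads divided by gene length and library size, in log2) of 12662 genes per library. Build mm9 and the tools featureCounts, Subread and limma are named, with no version, in the submitters' processing notes. Whether counting used strand or multiply matching reads is not given in the sources. A gene length column (other unit, in bases) came with the deposited counts.

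edgeR 4.0.16 (R 4.3.3) was applied to the counts: filterByExpr (minimum count 10, total 15), which kept 14912 of 26286 genes, TMM scaling, and a robust quasi-likelihood fit with group as the single term, whose p-values were adjusted over all tested genes by Benjamini-Hochberg (threshold 0.05). CPM are counts over the TMM-scaled library total. Log2 fold changes are labelled Hhex-deleted over wild-type (prior count 0.125), and the SE is the fold change over the square root of F, an approximation. No pair of libraries agreed within sampling noise (chi-square per degree of freedom at least 29.8). All 10 genes and all list entries matched a symbol of the deposited tables or of RefSeq GRCm38, which served only for names, gene order and the promoter sequences. DESeq2 1.42.0, limma 3.58.1 (voom, and on the log2 RPKM values), other filters and scalings, and fits without each library were the alternatives. The tests were tried on simulated counts. The members and lists were chosen with earlier results of these data known. Named genes are the 10 and the 5 genes nearest to Bmp4 in profile (prior count 2). From each list of related genes, marker lists aside, they include each gene past the threshold or otherwise the 2 with the highest mean CPM. Bmp2, the further response genes, Acvr1b, Inha, the other bHLH genes, the chromosome neighbours and the named markers were added after values were seen.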

Additional observations from a re-analysis of the deposited data

How the results depend on the processing

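The order of the 10 genes by wild-type level was the same with the deposited log2 RPKM values. With 2 libraries per group the fits without a library assume that the lone sample varies like the others. Counts over all tested genes, 221 higher and 167 lower, became 493 and 495 with DESeq2, 123 and 79 with limma-voom, and 114 and 65 with limma on the deposited log2 RPKM values. With no low-count filter 272 were lower, and with a library left out counts ran from 84 to 366 higher and from 40 to 231 lower. Of the 44 pathway genes beyond the 10, 0 higher and 0 lower became 3 and 1 with DESeq2 and 1 higher with no low-count filter (Crim1). With a library left out 0 to 1 were higher. Of the 10 genes 1 was called, 0 by limma-voom or limma on log2 RPKM, and 1 to 2 with a library left out (Bmp4; Bmpr1a; Bmpr1a and Id3). Alternatives for the calls among the 10 genes, among the markers and for Tie1 were chosen after seeing the data.

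With a library left out, log2 fold changes ran from 3.58 to 4.74 for Bmp4, from 2.20 to 5.19 for Bmpr1a, from -0.71 to 0.27 for Id2 and for the median of the Id genes, and from 0.73 to 4.53 for Id3. These ranges follow from which wild-type or Hhex-deleted library remained. Tal1 was not past the threshold with limma-voom (adjusted p = 0.0543) or with limma on log2 RPKM (0.0537).

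The replicate numbers are shared between groups, but the labels tie no number to a mouse or a batch. Same-numbered libraries deviated together with a correlation of 0.35 across 13435 genes. With the replicate number as a block, 1 further pathway gene was called higher (Gata2, adjusted p = 0.0254), and the log2 fold change of Bmp4 was 4.24. Depth limits Bmp4 and Id3 in wild-type replicate 2, at 3 reads each.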
